A study of Mus musculus with 18 samples.

Results

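The genes described are 10 listed members of the endoplasmic reticulum (ER) HSP70 and HSP90 chaperone system, taken by gene symbol from a table of 19938 genes measured on arrays in mouse cells. They are Hspa5, Hsp90b1, Hyou1, Dnajb9, Dnajb11, Dnajc3, Dnajc10, Sil1, Sdf2l1 and Creld2, and all 10 were measured. The cells are B16 F10.9-4, a line of the mouse B16 melanoma. Doxycycline was given to part of the cultures to switch on LIP, the short isoform of the transcription factor C/EBPβ, and tunicamycin was then added for 0, 5 or 12 h. Of the 6 groups, 3 had no doxycycline: vehicle, 5 h of tunicamycin and 12 h of tunicamycin. The other 3 had doxycycline (called LIP here), alone or with 5 or 12 h of tunicamycin. The whole set was run as 3 independent experiments, with 1 array per group in each. The titles of the vehicle arrays name no hour. No vehicle array labelled 5 or 12 h was analysed here, so hours in culture and tunicamycin cannot be told apart. No doxycycline array of cells lacking the LIP construct was analysed here either, so LIP and doxycycline itself cannot be told apart. The vector and promoter behind LIP are not given in the sources used here.

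BiP (Hspa5) and GRP94 (Hsp90b1) are the HSP70 and HSP90 of the ER lumen, where they bind unfolded secretory and membrane proteins. BiP works by an ATP cycle: J-domain co-chaperones bring clients and start ATP hydrolysis, and exchange factors release the nucleotide so that the client can leave. Tunicamycin blocks the first step of N-linked glycosylation, unfolded protein builds up in the ER, and the sensors ATF6, IRE1 and PERK start the unfolded protein response, of which genes for these chaperones are textbook targets.

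In that response ATF6, with the CCAAT-binding factor NF-Y, acts at the ER stress response element (ERSE), written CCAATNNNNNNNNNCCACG. Promoter windows running from 250 bases before to 50 after the annotated start were matched by symbol in RefSeq's table (build GRCm38.p6) for 8 members, all but Hyou1 and Sil1. An exact ERSE, on either strand, was found in 4 of these 8 windows and in 0.13% of the 27025 promoter windows scanned. ERSE-II, ATTGGNCCACG, was found in 1 of the 8 and in 0.037% of all. The stretches that hold them are shown because the element is the textbook site of this response and 5 of the 8 windows hold one form of it; each is read 5′ to 3′ on the gene's strand, and capitals mark the whole match, spacer bases included. They lie at chr2:34772015-34772053 (+) for Hspa5, chr10:86705523-86705666 (-) for Hsp90b1, chr14:118937817-118937855 (+) for Dnajc3, chr15:88819510-88819548 (+) for Creld2 and chr16:22857842-22857872 (+) for Dnajb11.
Hspa5: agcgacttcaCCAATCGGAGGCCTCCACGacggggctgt
Hsp90b1: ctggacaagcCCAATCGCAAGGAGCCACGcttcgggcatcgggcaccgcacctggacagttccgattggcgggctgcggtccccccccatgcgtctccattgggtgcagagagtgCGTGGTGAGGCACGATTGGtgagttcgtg
Dnajc3: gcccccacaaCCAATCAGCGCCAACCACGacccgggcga
Creld2: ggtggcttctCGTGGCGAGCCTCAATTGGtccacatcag
Dnajb11: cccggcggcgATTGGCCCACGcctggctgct

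The match in Hspa5 begins 65 bases before the start and that in Dnajc3 105 before it. Creld2 carries its match on the opposite strand, 126 bases before the start. Hsp90b1 has a match on each strand, 212 and 107 bases before the start, and the ERSE-II of Dnajb11 begins 7 bases after it. With any last 2 bases allowed (CCAATNNNNNNNNNCCA, which contains the exact form), the same 4 genes matched, against 1.09% of all windows, and Hspa5 and Hsp90b1 then had a further match each, 98 and 170 bases before the start. The windows of Dnajb9, Dnajc10 and Sdf2l1 had neither ERSE nor ERSE-II. The element TGACGTGG, known as UPRE, matched 0 of the 8 windows (0.607% of all), the palindrome TTGCGCAA, a C/EBP site, 0 (0.185% of all), and TGATGNAAT, a composite C/EBP and ATF element, 0 (0.969% of all). A match is a string of letters, not a shown binding site, and 0 matches say only that these letters are not in these windows.

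Dnajb9, which had the largest change of the 10, is shown whole, at chr12:44210019-44210318 (-), because both parts of the ERSE occur in it but not at the ERSE spacing. Capitals here mark CCAAT and CCACG, found on the gene's strand only.
Dnajb9: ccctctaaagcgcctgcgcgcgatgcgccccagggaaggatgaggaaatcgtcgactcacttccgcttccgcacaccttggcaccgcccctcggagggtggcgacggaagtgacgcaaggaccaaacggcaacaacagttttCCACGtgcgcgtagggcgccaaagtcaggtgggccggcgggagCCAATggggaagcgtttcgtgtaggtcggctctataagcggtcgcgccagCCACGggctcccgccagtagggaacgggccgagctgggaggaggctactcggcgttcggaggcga
CCAAT alone occurs in 37.9% and CCACG alone in 32.7% of all windows, and 7 of the 8 members' windows hold each; Dnajc10 holds neither.

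All values are RMA log2 intensities as the authors deposited them, so a difference of 1 is a doubling of signal, and the number of arrays limits the precision. Pearson r between arrays of a group, over genes, lay between 0.997 and 0.999. Of the genes that define melanocytes, 7 of 7 stood above 6.08, the level under which 95% of 1190 olfactory and vomeronasal receptor genes lay, and their mean level ran from 11.37 to 12.01 over the arrays. Of fibroblast markers 3 of 5 stood above it, of leukocyte markers 2 of 5, of endothelial markers 1 of 3 and of keratinocyte markers 0 of 3, none with a mean over 7.90. Cebpb, the gene that encodes LIP, stood at 9.33 ± 0.13 (SD, n = 3) in vehicle and at 11.18 ± 0.14 (SD, n = 3) under LIP alone. After 12 h of tunicamycin Cebpb stood at 10.29 without doxycycline and at 11.52 with it. Its log2 difference with doxycycline was thus 1.84 at 0 h, 1.81 at 5 h and 1.22 at 12 h, so the contrast was smaller at 12 h. This probe set reads the gene as a whole, with no value for LIP apart from the full-length forms.

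After 12 h of tunicamycin all 10 genes had risen, by 1.26-fold (Sil1) to 4.72-fold (Dnajb9). The call is an adjusted p under 0.05 in limma, and by it 11.9% of all 19938 genes were higher and 15.8% lower. The median change of the 10 was 0.98 on the log2 scale, against 0.0010 over all genes. Vehicle and tunicamycin arrays did not overlap for any of the 10, so each necessarily rose in all 3 experiments. The share of all genes without such overlap was not computed, here or in the comparisons below. Whether fewer cells of a kind or less RNA per cell lies behind a level cannot be told apart in these bulk cultures. The comparisons below share arrays (vehicle serves LIP alone, 5 h and 12 h), so values set side by side are not independent.

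**Figure D1:**
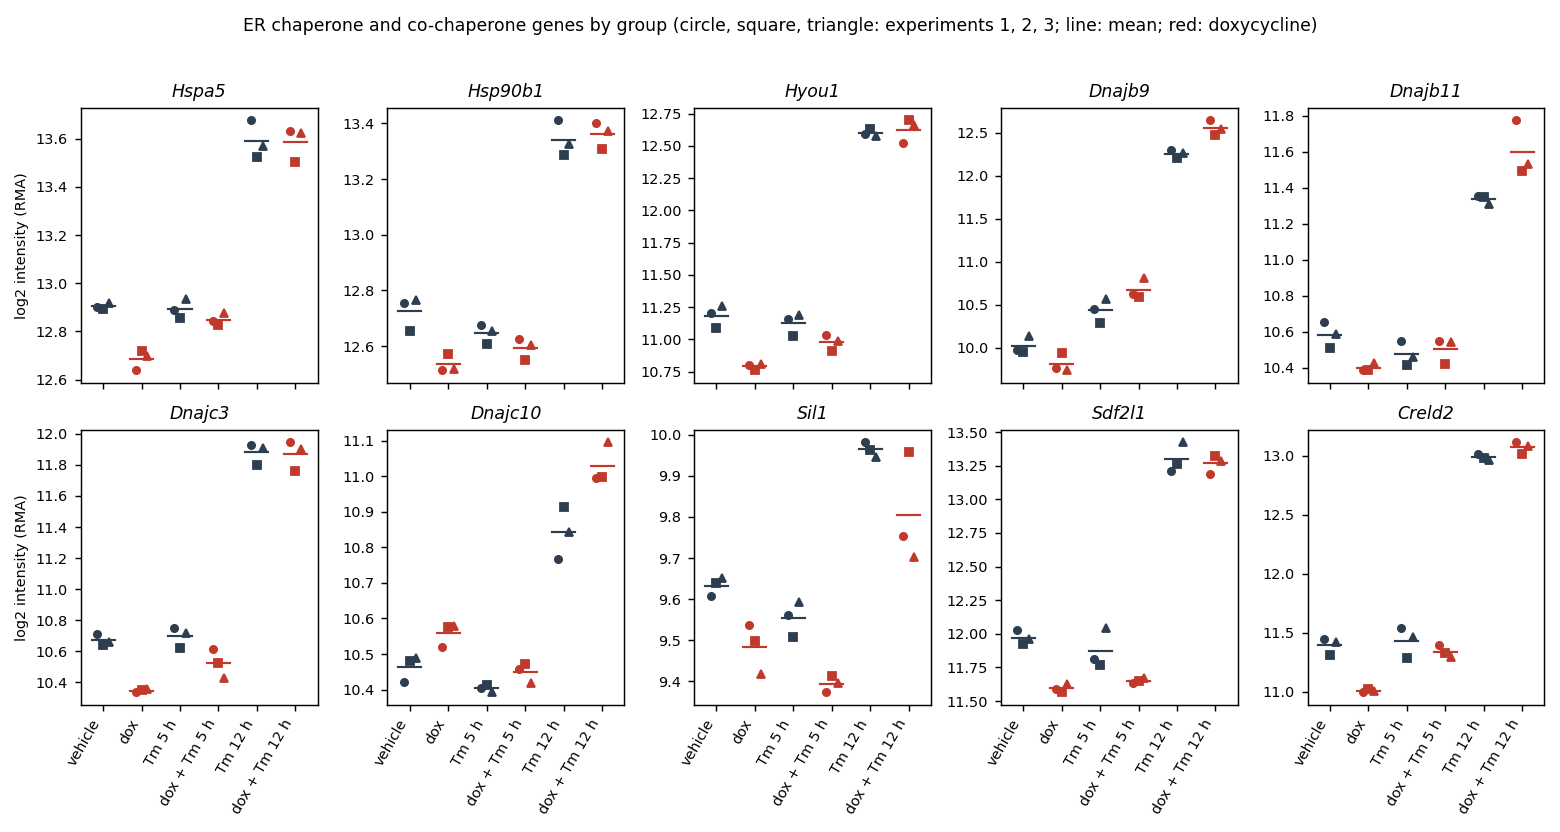
Log2 intensity (vertical axis, own scale for each gene) of the 10 genes in the 6 groups; circles, squares and triangles are experiments 1, 2 and 3, lines are group means of 3 arrays, and red marks doxycycline. All arrays at 12 h of tunicamycin lie above all arrays at 0 and 5 h for each of the 10 genes, for example from 13.50 to 13.68 against 12.64 to 12.94 for Hspa5.

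The chaperones themselves came from the highest signals. Hspa5 read 12.90, 12.89 and 12.92 in the vehicle arrays of experiments 1, 2 and 3, and 13.68, 13.53 and 13.57 after 12 h. The 3 treated arrays were all above the vehicle arrays, a change of 0.69 ± 0.050 (SE, adjusted p = 3.81e-09), or 1.61-fold. Hsp90b1 read 12.76, 12.65 and 12.76 in vehicle and 13.41, 13.29 and 13.33 after 12 h, again with no overlap, a change of 0.62 ± 0.049 (adjusted p = 1.25e-08).

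The exchange factors of BiP moved unequally in size. Hyou1 encodes GRP170, a large HSP70 relative that exchanges BiP's nucleotide, and read 11.21, 11.09 and 11.26 in vehicle and 12.59, 12.63 and 12.58 after 12 h. That change of 1.41 ± 0.059 (adjusted p = 1.82e-12) was 2.66-fold. Sil1, the other exchange factor, read 9.61, 9.64 and 9.65 in vehicle and 9.98, 9.96 and 9.95 after 12 h. Its groups did not overlap either, but the change was only 0.33 ± 0.057 (adjusted p = 0.000143), the smallest of the 10.

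Of the 4 J-domain co-chaperones, Dnajb9 (ERdj4), which helps to hand misfolded proteins to degradation, rose most, and Dnajc10 (ERdj5), a reductase of disulphide bonds, least. Dnajb9 read 9.97, 9.95 and 10.13 in vehicle and 12.30, 12.21 and 12.26 after 12 h, a change of 2.24 ± 0.079 (adjusted p = 1.66e-13). Dnajc3 (p58IPK, a co-chaperone of BiP that also binds PERK) stood at 10.67 ± 0.037 (SD, n = 3) in vehicle and 11.88 ± 0.069 (SD, n = 3) after 12 h, a rise of 1.21. Dnajb11 (ERdj3), which binds clients directly and passes them to BiP, rose by 0.76 ± 0.066 (adjusted p = 4.23e-08). Dnajc10 rose by 0.38 ± 0.047 (adjusted p = 4.04e-06), from arrays between 10.42 and 10.49 to arrays between 10.77 and 10.91.

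The 2 remaining genes were among the larger rises. Creld2, which encodes an ER-resident protein with EGF-like repeats, read 11.44, 11.31 and 11.42 in vehicle and 13.01, 12.98 and 12.97 after 12 h, a 3.02-fold rise (1.59 ± 0.059, adjusted p = 3.08e-13). Sdf2l1, whose protein binds ERdj3 and keeps clients soluble, rose by 1.33 ± 0.067 (adjusted p = 2.9e-11). Its vehicle arrays lay between 11.92 and 12.03 and its 12 h arrays between 13.21 and 13.42.

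Most of the rise came after 5 h. At 5 h only Dnajb9 had risen and 0 of the 10 had fallen, while 4.08% of all genes were called higher and 4.94% lower. Dnajb9 read 10.45, 10.29 and 10.57, all above the vehicle arrays, a change of 0.42 ± 0.079 (adjusted p = 0.00225). Without experiment 1 its adjusted p was 0.0901. The other 9 changes lay between -0.11 (Dnajb11) and 0.038 (Creld2). For Hspa5 the change was -0.0096, with a 95% interval from -0.11 to 0.095, and for Hyou1 it was -0.059, from -0.18 to 0.065. From 5 to 12 h all 10 rose, by 0.41 (Sil1) to 1.82 (Dnajb9), with a median of 1.03 against -0.032 over all genes; 11.4% of all genes were higher and 13.6% lower in that comparison.

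**Figure D2:**
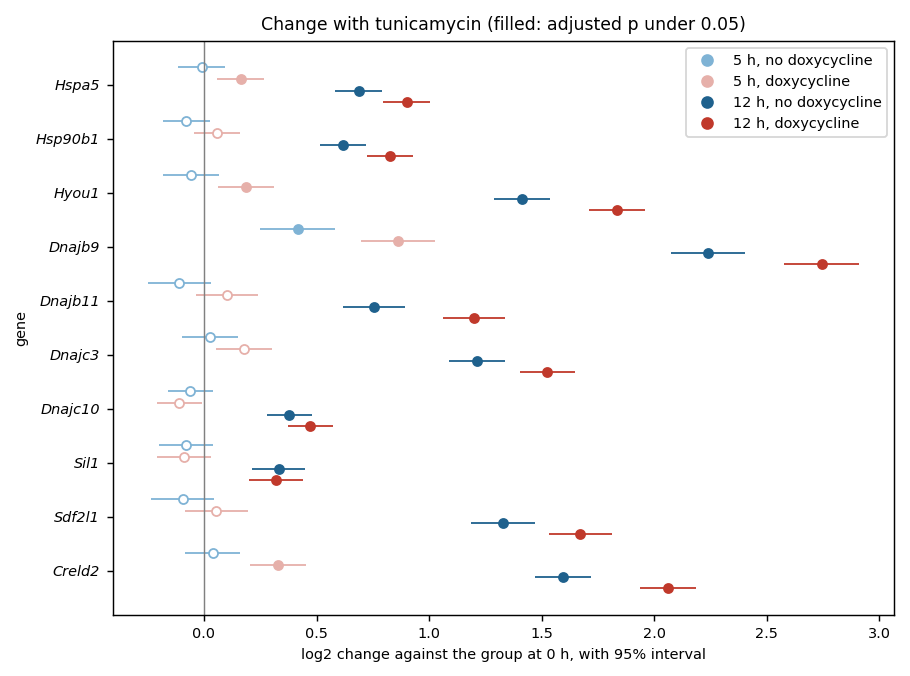
Log2 change with tunicamycin (horizontal axis) for each gene at 5 and 12 h, against vehicle without doxycycline (blue) and against doxycycline alone with it (red); bars are 95% intervals from limma and filled points have an adjusted p under 0.05. At 12 h every point is filled, and they lie between 0.32 and 2.74, while at 5 h the filled points are Dnajb9 without doxycycline and Hspa5, Hyou1, Dnajb9 and Creld2 with it.

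Before any tunicamycin, LIP lowered 6 of the 10 genes and raised 0, while 5.82% of all genes were lower and 4.89% higher. The 6 were Hyou1 (-0.39 ± 0.059, adjusted p = 0.000211), Creld2 (-0.38 ± 0.059, adjusted p = 0.00026), Sdf2l1 (-0.38 ± 0.067, adjusted p = 0.00103), Dnajc3 (-0.32 ± 0.059, adjusted p = 0.00129), Hspa5 (-0.22 ± 0.050, adjusted p = 0.00713) and Hsp90b1 (-0.19 ± 0.049, adjusted p = 0.0157). The median of the 10 was -0.21, against 0.016 over all genes. Creld2 read 11.00, 11.03 and 11.00 under LIP, all below the vehicle arrays of 11.31 to 11.44. Hspa5 read 12.64, 12.72 and 12.70 under LIP and at least 12.89 in vehicle. Dnajb9 (-0.20, adjusted p = 0.116), Dnajb11 (-0.18, adjusted p = 0.0861) and Sil1 (-0.15, adjusted p = 0.112) did not pass, though their LIP arrays all lay below the vehicle arrays. Dnajc10 stood the other way, at 0.094 (adjusted p = 0.253), with LIP arrays above vehicle arrays in all 3 experiments. Of the 7 melanocyte markers 5 fell under LIP at 0 h and 0 rose, with a median of -0.32, and 6 were lower with LIP at both 5 and 12 h of tunicamycin; their part in the LIP results was not tested.

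Several of these calls at 0 h turned on single arrays or on the model. Dnajb11 passed with the experiment as a block (adjusted p = 0.0407) and without the LIP 12 h array of experiment 1 (0.028), and Sil1 without the LIP 12 h array of experiment 2 (0.0355). Hsp90b1 lost its call without the vehicle array of experiment 1 (0.0731) or 3 (0.0774) or the LIP array of experiment 1 (0.0636) or 3 (0.0616), and the count of called genes was 3 without experiment 1 and 3 without experiment 3. Without experiment 2, Dnajb9 passed (adjusted p = 0.0338).

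With 5 h of tunicamycin in both, LIP left 1 gene lower, Sdf2l1, at -0.23 ± 0.067 (adjusted p = 0.0325), and 0 higher; of all genes 5.21% were lower and 6.76% higher. Sdf2l1 read 11.81, 11.77 and 12.04 without LIP and 11.63, 11.65 and 11.67 with it, so the groups did not overlap. With array medians set equal Sdf2l1 lost its call (adjusted p = 0.0761) and Dnajb9 was called higher (adjusted p = 0.035). The call was also lost without any of the 3 LIP arrays at 5 h (adjusted p = 0.0668 to 0.0893) or without the tunicamycin array of experiment 3 (0.201). The changes of the 10 ran from that of Sdf2l1 up to 0.24 in Dnajb9 (adjusted p = 0.0555), whose LIP arrays (10.62, 10.59 and 10.81) all lay above the arrays without it. With the experiment as a block 3 genes passed, Sdf2l1 and Dnajc3 (-0.17, adjusted p = 0.0344) lower and Dnajb9 higher (adjusted p = 0.0496). Dnajb9 also passed without the tunicamycin 5 h array of experiment 3 (0.0243) and without the LIP array at 0 h of experiment 2 (0.0472). Dnajc3 passed without any 1 of 3 arrays (0.0316 to 0.0462): the LIP 5 h array of experiment 1, the tunicamycin 5 h array of experiment 2 or the LIP 12 h array of experiment 2. Without the tunicamycin 5 h array of experiment 2, 3 genes were lower, Hyou1 among them (adjusted p = 0.0477), and Sil1 passed without the LIP 12 h array of experiment 2 (0.0213).

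After 12 h of tunicamycin LIP left 3 genes higher, all J-domain co-chaperones, and 0 lower, while 6.95% of all genes were higher and 7.77% lower. Dnajb9 read 12.65, 12.48 and 12.55 with LIP and at most 12.30 without, a change of 0.30 ± 0.079 (adjusted p = 0.0126). Dnajb11 read 11.78, 11.49 and 11.53 with LIP and 11.36, 11.35 and 11.31 without, a change of 0.26 ± 0.066 (adjusted p = 0.00954). Dnajc10 read 10.99, 11.00 and 11.10 with LIP and 10.77, 10.91 and 10.84 without, a change of 0.19 ± 0.047 (adjusted p = 0.0096). In each of these the groups did not overlap. The fourth J-domain gene, Dnajc3, stood at -0.0091, with a 95% interval from -0.13 to 0.11. Of 7 other J-domain proteins of the ER 0 passed in this comparison. Of 25 further ER folding factors 6 were higher and 0 lower. Of 21 genes of ER-associated degradation and regulators of the response 4 were higher and 3 lower.

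The chaperones were near level at that time. Hspa5 differed by -0.0055 between the groups (95% interval -0.11 to 0.099) and Hsp90b1 by 0.020 (-0.082 to 0.12). Both read close to the highest signals of the arrays at that time. The test of a different LIP effect at 12 h than at 0 h did not pass for either (interaction adjusted p = 0.164 and 0.16). It passed for both in 1 of 31 other settings, a trended and robust variance in limma (adjusted p = 0.0218 for each). Sil1 stood at -0.16 (adjusted p = 0.0708) and passed without the LIP 12 h array of experiment 2, which read 9.96 against 9.75 and 9.70 in the other 2 (adjusted p = 0.00283). Dnajb11 lost its call without the LIP 12 h array of experiment 1 (0.0624), Dnajb9 without that array (0.069) or the tunicamycin 12 h array of experiment 2 (0.0513), and Dnajc10 without the LIP 12 h array of experiment 3 (0.064) or the tunicamycin 12 h array of experiment 1 (0.0625). Without experiment 1 or without experiment 3, 0 of the 10 were called.

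**Figure D3:**
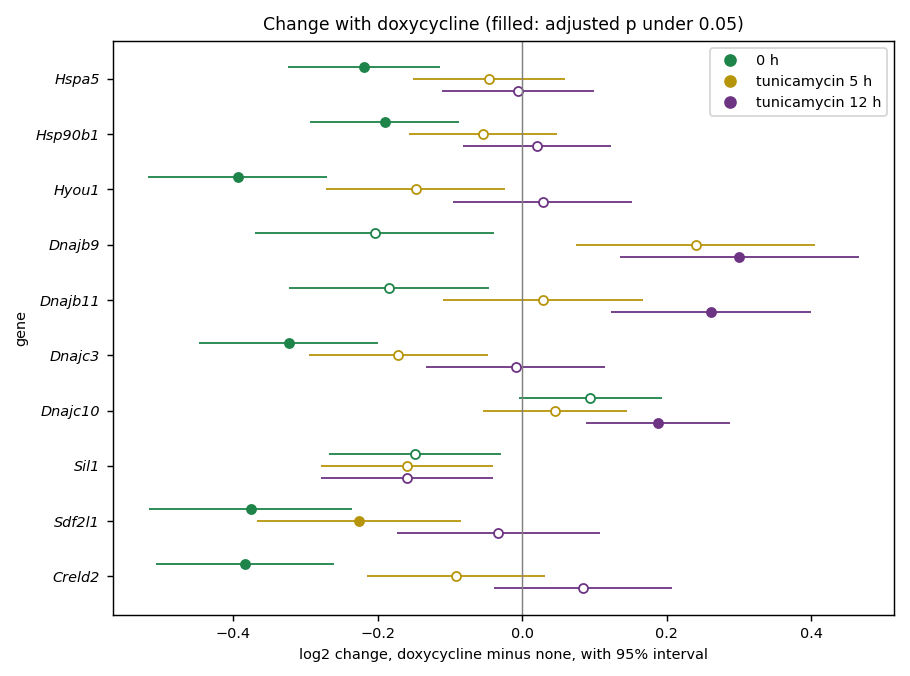
Log2 change with doxycycline (horizontal axis) for each gene at 0 h, 5 h and 12 h of tunicamycin; bars are 95% intervals from limma and filled points have an adjusted p under 0.05. Filled points lie below 0 at 0 h (6 genes), and at 12 h the 3 filled points, between 0.19 and 0.30, lie above 0.

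Within the LIP cultures the rise over 12 h of tunicamycin was called in all 10 genes, from 0.32 (Sil1) to 2.74 (Dnajb9), with a median of 1.36 against -0.025 over all genes; 13.4% of all genes were higher and 16.6% lower. Creld2 rose by 2.06 and Hyou1 by 1.84, which are 4.18-fold and 3.57-fold. At 5 h 4 of the 10 were higher and 0 lower, beside 6.54% and 5.56% of all genes. These were Dnajb9 (0.86 ± 0.079, adjusted p = 7.55e-07), Creld2 (0.33 ± 0.059, adjusted p = 0.000835), Hyou1 (0.19 ± 0.059, adjusted p = 0.0439) and Hspa5 (0.16 ± 0.050, adjusted p = 0.039). From 5 to 12 h under LIP all 10 rose, by 0.41 (Sil1) to 1.88 (Dnajb9), beside 10.9% of all genes higher and 15.4% lower.

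The calls of Hspa5 and Hyou1 at 5 h were close to the threshold. Hspa5 lost its call without any 1 of 9 arrays (adjusted p = 0.0502 to 0.16), those of the vehicle, LIP and LIP 5 h groups. Hyou1 also lost it without any 1 of 9 arrays (0.0502 to 0.163): the 3 LIP arrays, the LIP 5 h and tunicamycin 12 h arrays of experiments 1 and 3, the LIP 12 h array of experiment 3 and the vehicle array of experiment 1. With array medians set equal both lost it (0.0548 and 0.0882), and Hyou1 also with quantile normalization repeated (0.0547). Dnajc3 (0.18, adjusted p = 0.0601) passed with the experiment as a block (adjusted p = 0.0294) and without any 1 of 3 arrays (0.03 to 0.049): the LIP 5 h array of experiment 3, the tunicamycin 5 h array of experiment 2 or the LIP 12 h array of experiment 2.

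Whether the response to tunicamycin differed with LIP was tested as an interaction, the change under LIP minus the change without it. At 12 h 4 of the 10 had a larger rise under LIP and 0 a smaller one, while 0.993% of all genes had a larger and 0.848% a smaller change. The median difference of the 10 was 0.33, against -0.016 over all genes. For Creld2 the difference was 0.47 ± 0.083 (adjusted p = 0.00479), with 0.55, 0.32 and 0.54 in the 3 experiments. For Hyou1 it was 0.42 ± 0.083 (adjusted p = 0.0106), with 0.33, 0.40 and 0.53. In both genes the level at 12 h did not differ by the test between cultures with and without LIP (0.084, adjusted p = 0.447, and 0.028, adjusted p = 0.862), while the level at 0 h did. For Dnajb11 the difference was 0.44 ± 0.093 (adjusted p = 0.0162), with 0.69, 0.27 and 0.38, and for Dnajb9 0.50 ± 0.11 (adjusted p = 0.0229), with 0.56, 0.28 and 0.68. In these the LIP arrays lay below vehicle at 0 h and above the tunicamycin arrays at 12 h. The change at 0 h did not pass in limma for either (adjusted p = 0.0861 for Dnajb11 and 0.116 for Dnajb9). For Dnajb9 the highest LIP array at 0 h read 9.941 and the lowest vehicle array 9.948.

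For the remaining 6 the interaction at 12 h did not pass. Sdf2l1 (0.34, adjusted p = 0.0772), Dnajc3 (0.31, adjusted p = 0.0647), Hspa5 (0.21, adjusted p = 0.164) and Hsp90b1 (0.21, adjusted p = 0.16) had the same sign in all 3 experiments, and Dnajc3 passed with the experiment as a block (adjusted p = 0.0322). For Dnajc10 the difference was 0.093, with a 95% interval from -0.047 to 0.23, and for Sil1 it was -0.011, from -0.18 to 0.16. Dnajb11 lost its call without the vehicle array of experiment 1 (0.0537), and Dnajb9 without any 1 of 6 arrays (0.05 to 0.0742): the LIP and LIP 12 h arrays of experiments 1 and 3, the tunicamycin 12 h array of experiment 2 or the vehicle array of experiment 3. Dnajc3 passed without the LIP 12 h array of experiment 2 (0.023), and Sdf2l1 without the tunicamycin 5 h (0.0366) or 12 h (0.0374) array of experiment 3. Without experiment 1 or without experiment 3, 0 of the 10 passed. At 5 h the interaction passed in 0 of the 10 in limma, beside 0.0301% of all genes with a larger and 0% with a smaller change. Before adjustment 5 of the 10 had a p under 0.05, and the share of all genes at that unadjusted level was not computed. The largest difference was 0.44 ± 0.11 in Dnajb9 (adjusted p = 0.221).

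Ordered by group mean, Hspa5 was lowest under LIP alone (12.69), followed by LIP with 5 h (12.85), 5 h (12.89) and vehicle (12.90), then LIP with 12 h and 12 h (both 13.59). Only the steps from LIP alone to LIP with 5 h and from vehicle to the 12 h groups had arrays that did not overlap. LIP alone had the lowest mean for 8 of the 10, though in Hsp90b1 and Dnajb11 its arrays overlapped those of the next group. For Dnajc10 the lowest group was 5 h without LIP (10.40) and for Sil1 LIP with 5 h (9.39). Dnajb9 was the one gene whose 6 groups formed a series with no overlap between neighbours, from 9.81 under LIP alone through 10.02, 10.43, 10.67 and 12.26 to 12.56 in LIP with 12 h. Its first step was narrow, with the highest array under LIP alone at 9.941 and the lowest vehicle array at 9.948.

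The size of these changes has to be read beside where each probe set sits on the array. The highest probe set on any array read between 14.03 and 14.12. In vehicle the probe set of Hspa5 read above 98.6% of the 35557 probe sets and after 12 h above 99.8%, with 84 probe sets above it and 0.45 left below the highest group mean. For Hsp90b1 the distance to the highest fell from 1.32 to 0.70, for Sdf2l1 from 2.07 to 0.74 and for Creld2 from 2.65 to 1.06. Of 593 genes with a vehicle level of at least 12, 0 rose by 1 or more after 12 h, and the largest rise among them was 0.73, in Slc3a2, an amino acid transporter subunit. Among the 243 genes with the highest vehicle levels, Hspa5 had the third and Hsp90b1 the fourth largest rise. Of the 76 genes from 13 upward the largest rise was 0.13, in Canx. Vehicle levels of the other members lay lower, and their changes were large in some (Dnajb9, 10.02 in vehicle, 2.24) and small in others (Sil1, 9.63 in vehicle, 0.33, and Dnajc10, 10.46 in vehicle, 0.38). How far the ceiling holds down the measured changes of Hspa5, Hsp90b1, Sdf2l1 and Creld2 was not tested. A smaller log2 change there is not shown to be a smaller change in RNA.

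**Figure D4:**
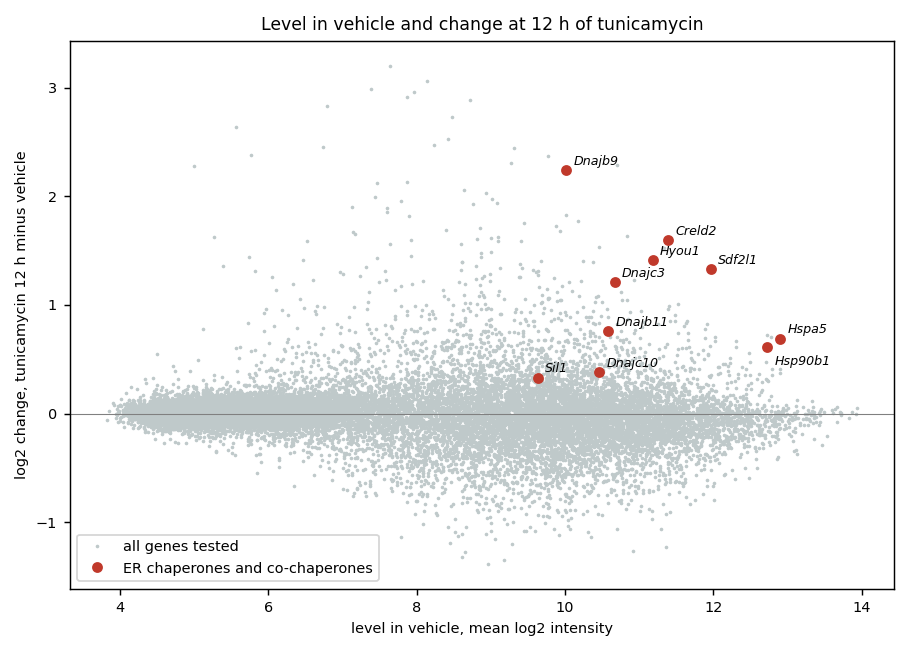
Mean log2 intensity in vehicle (horizontal axis) and log2 change after 12 h of tunicamycin (vertical axis) for the 19938 genes tested (grey) and the 10 chaperone and co-chaperone genes (red). The spread of grey points narrows to the right, where Hspa5 and Hsp90b1 lie at 0.69 and 0.62 among the upper points of their level.

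The 10 genes moved much alike over the 18 arrays: over their 45 pairs Pearson r had a median of 0.96, from 0.73 (Dnajc10 with Sil1) to 0.996 (Dnajc3 with Creld2). These arrays share 6 conditions, and r within a condition was not computed. Among 12372 other genes above the receptor level, those with r closest to Hspa5 were Manf (0.99), an ER-resident secreted factor, Fkbp11 (0.99), a prolyl isomerase of the ER, Slc35b1 (0.99), a nucleotide transporter of the ER membrane, and Piga (0.99), an enzyme of GPI anchor synthesis. For Hsp90b1 they were Pdia4 (0.996), a disulphide isomerase, Far1 (0.99), Slc35b1 (0.99) and Tmed3 (0.99), for Dnajb9 Nfxl1 (0.99), Mmadhc (0.99), Ino80 (0.99) and Slc25a43 (0.99), and for Sil1 Dalrd3 (0.95), Mtr (0.95), Gmds (0.94) and Igflr1 (0.94).

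Other genes of ER folding mostly rose at 12 h too, when 11.9% of all genes were higher and 15.8% lower. Of 25 further folding factors 22 rose and 1 fell, with a median of 0.42; the largest changes were in Ero1b, an oxidase that feeds disulphide formation (2.99), Fkbp11 (1.67), Fkbp14 (1.09) and Manf (1.05). Of 21 ER-associated degradation (ERAD) genes and regulators of the response 20 rose and 0 fell, with a median of 0.85. These included Ddit3, which encodes CHOP (2.89), Herpud1 (2.29), Wfs1 (2.06) and the ubiquitin ligase Syvn1 (1.68). The transcription factor genes Xbp1 and Atf6 rose by 0.99 and 1.39. Of 7 other J-domain proteins of the ER 4 rose and 0 fell, namely Sec63, which works at the translocon (0.58), Dnajc25 (0.45), Dnajc1 (0.35) and Dnajb14 (0.22).

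At 5 h (4.08% of all genes higher, 4.94% lower) 5 of the 21 ERAD and regulator genes had risen and 0 fallen, with Ddit3 (1.17), Herpud1 (0.80), the sensor gene Ern1 (0.63) and Atf4 (0.36) as the largest, while of the 25 folding factors 0 rose and 1, Fkbp14 (-0.25), fell. Under LIP at 0 h (4.89% of all genes higher, 5.82% lower) 10 of the 25 folding factors fell and 1 rose; Fkbp11 (-0.48), Pdia5 (-0.45), Pdia6 (-0.35) and Ero1b (-0.32) had the largest changes. Of the 21 ERAD and regulator genes 4 fell and 2 rose there, with Herpud1 (-0.68), Ern1 (-0.45) and Xbp1 (-0.39) falling and Atf4 (0.36) rising. In the interaction at 12 h (0.993% of all genes larger, 0.848% smaller) 7 of the 25 folding factors had a larger change under LIP and 0 a smaller one, among them Fkbp11 (0.63), Pdia5 (0.61), Fkbp7 (0.58) and Pdia6 (0.45), and 2 of the 21 ERAD and regulator genes, Selenos (0.45) and Herpud1 (0.42). Of the 7 J-domain genes 0 passed in that test.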

How the data were processed

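RNA from 18 cultures was measured on 18 Affymetrix arrays, 3 in each of 6 groups. The authors deposited log2 intensities per probe set; RMA and Partek are named per the submitters' processing notes, and the genome build and RMA settings are not given in the sources used here. Of 35557 probe sets, 21789 carry 1 gene symbol, and the brightest of a gene (mean over all arrays) stood for it, which gave 19938 genes. Both probe sets of Dnajc3 hold identical values. Group means over all 18 arrays were fitted with limma 3.58.1 in R 4.3.3, with Benjamini-Hochberg adjustment over all genes of a comparison and a threshold of 0.05; the code was tested on simulated data.

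The series' design text gives 3 independent experiments, each with all 6 groups; the replicate numbers in the labels were taken as the experiment numbers and so pair the arrays. Deviations from group means correlated with a median r of 0.038 over 45 same-number pairs (-0.50 to 0.50). Over pairs that differed in both number and group the median r was -0.014. The experiment as a block was an alternative, as were other scalings, filters, variance models, weights and omissions.

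The members and gene lists were chosen with earlier results of these data known. All members were named, with Cebpb, Ddit3, Xbp1 and Atf6, up to 4 called genes with the largest change per list, and the 4 genes most like Hspa5, Hsp90b1, Dnajb9 and Sil1. Slc3a2 and Canx were named after their values were seen.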

Additional observations from a re-analysis of the deposited data

Results flagged for a closer look

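In 4 genes the change over 12 h of tunicamycin differed between cultures with and without LIP by a test of that difference (interaction in limma, adjusted over all 19938 genes). The difference of log2 changes was 0.42 for Hyou1 (adjusted p = 0.0106), 0.50 for Dnajb9 (adjusted p = 0.0229), 0.44 for Dnajb11 (adjusted p = 0.0162) and 0.47 for Creld2 (adjusted p = 0.00479), larger under LIP and of 1 sign in all 3 experiments for each. Of all genes 0.993% had a larger and 0.848% a smaller change under LIP. Without experiment 1 or without experiment 3, 0 of the 10 members passed. Outlying arrays within a group were not tested for, since each group holds 3 arrays. The effect of leaving out single arrays is given with the results.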

How the results depend on the processing

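Over 31 settings 0 of the 110 changes (10 genes in 11 comparisons) were called with the opposite sign, and 28 changed their call in some setting other than the added size threshold. All 10 genes stayed called for 12 h against 0 h and against 5 h, with and without LIP, in every setting but that threshold. The count for LIP at 5 h of tunicamycin, 1 in the reported fit, was 3 with the experiment as a replicate block, 0 with only the compared groups fitted, 2 with quantile normalization repeated, 4 with dim genes left out, 3 with a trended and robust variance, 4 with array weights and 2 without the 2 arrays that stood apart in an earlier analysis. With array medians set equal it stayed at 1 but was Dnajb9, higher, in place of Sdf2l1, lower. For LIP at 12 h it was 1 with only the compared groups, for 5 h under LIP 2 with array medians set equal, and for the interaction at 12 h 8 with a trended and robust variance. The replicate block changed no call beyond those given in the report. When a log2 change of at least 1 was also required, the counts were 5 at 12 h and 5 from 5 to 12 h, 6 and 6 for the same under LIP, and 0 for LIP at 0 h, 0 for 5 h, 0 for 5 h under LIP, 0 for LIP at 5 h, 0 for LIP at 12 h and 0 for the interaction at 12 h. Leaving out 1 array or 1 experiment gave counts from 3 to 7 for LIP at 0 h, 0 to 1 for 5 h, 2 to 5 for 5 h under LIP, 0 to 3 for LIP at 5 h, 0 to 4 for LIP at 12 h and 0 to 5 for the interaction at 12 h. The share of all genes called was not computed for any of these settings or omissions, so these counts have no share beside them. Omissions leave fewer samples. For the other settings the cause was not tested. The number of arrays and, for Hspa5, Hsp90b1, Sdf2l1 and Creld2, the nearness to the highest signals limit these values.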

Other observations

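HSP70 and HSP90 genes outside the ER went mostly the other way after 12 h of tunicamycin. Of 26 measured cytosolic and mitochondrial chaperone and co-chaperone genes 15 fell and 2 rose, with a median of -0.16, while 15.8% of all genes were lower and 11.9% higher. Hsph1, a cytosolic exchange factor (-0.92), Dnajb1, a cytosolic J-domain protein (-0.66), and Hspa2 (-0.62) fell, while Dnaja3, a J-domain protein of mitochondria, rose by 0.91. Under LIP 14 fell and 3 rose over the same time (16.6% of all genes lower, 13.4% higher), and Hspa9, the HSP70 of mitochondria, rose by 0.59. At 5 h without LIP 6 had fallen and 1 had risen (4.94% of all genes lower, 4.08% higher). Tunicamycin and hours in culture cannot be told apart here either.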
